A study of Mus musculus with 40 samples.

Results

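A set of 10 genes was followed that mark dendritic cells (DCs) or encode the inducible subunit of interleukin (IL)-12. The set comprises the growth factor receptor Flt3, the transcription factors Zbtb46, Batf3 and Irf8, the surface receptors Xcr1, Clec9a, Ccr7, Cd209a and Siglech, and the cytokine subunit Il12b. All 10 were present among the 14318 genes of the expression table. Contrasting patterns were seen in the tumor models. In the 4T1-based model, most of the genes were highest with anti-PD-1 alone, in 4 of 5 tumors, and near or under the untreated level when chitin was added. In the 66cl4-based model, most were highest in the chitin-containing groups, and with the combination Xcr1 and Il12b were above all untreated tumors. None of these treatment differences passed an adjusted p of 0.05 with all tumors included, and several did when single tumors were left out. The most passed without the 1 anti-PD-1 tumor of the 4T1-based model that had low values. The share of all genes that passed with a tumor left out is not given here.

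DCs take up antigen, carry it to lymph nodes and present it to T cells. Conventional type 1 DCs (cDC1s) depend on Batf3 and Irf8, carry the chemokine receptor XCR1 and the dead-cell receptor CLEC9A, and are known for presenting tumor antigen to cytotoxic T cells. FLT3 is the receptor for the growth factor that sustains DC development, ZBTB46 is a transcription factor of the conventional DC lineage, and CCR7 guides mature DCs to lymph nodes. IL12B is the p40 subunit shared by IL-12, which drives interferon-gamma production by T and natural killer (NK) cells, and by IL-23. CD209A is a lectin of monocyte-derived and conventional type 2 DCs, and SIGLECH marks plasmacytoid DCs. Irf8 is also used by other myeloid cells and by B cells.

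The values came from bulk RNA sequencing of 39 primary tumors removed at 5 w p.i. from wild-type female BALB/c mice, into whose mammary ducts luciferase-expressing 4T1 or 66cl4 cells had been injected during lactation. Both are mouse mammary carcinoma lines used as models of triple-negative breast cancer (TNBC). Each model had 4 groups of 5 tumors, which were untreated or received anti-PD-1 (200 µg per dose), chitin (1 mg per dose, intraperitoneal) or both, and the untreated 4T1 group held 4 tumors because its tumor 3 had degraded RNA. The comparisons ask whether chitin, a polysaccharide given to block chitinase-like proteins, alone or with the checkpoint antibody, goes with other levels of these genes. The labels do not tie tumors to mice, so that p-values measure the spread between tumors. Glands were injected in pairs, so that tumors of a group may share a mouse. The tests took all tumors as independent, and SEs and p-values may be too small. In whole tumors, fewer cells of a type and less RNA per cell cannot be told apart.

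Reads per tumor assigned to the listed genes ranged from 5105898 to 14800352, with a median of 6590274. The chitin groups were read more deeply, with a median of 10250227 reads for 66cl4 tumors with chitin and 6064018 for untreated 66cl4 tumors. In the 4T1 anti-PD-1 group, tumor 2 stood apart over all genes: the SD of its VST differences from the other tumors of the group was 0.504 to 0.543, against 0.167 to 0.371 among those, and 250 genes were at 0 in it against 90 to 119. Values of up to 0.548 were also reached in the 4T1 combination group, by tumor 1. Results that rest on anti-PD-1 tumor 2 are given with and without it. Values are given as normalized read counts (reads divided by a size factor for depth) for description, and as variance-stabilized (VST) values, on a log2-like scale, for differences. Apart from Irf8, which had a mean of 1220 reads per tumor, the genes were scarce: the other 9 lay in the lowest 25% of all genes by mean value, with 10.6 reads for Siglech to 57.5 for Ccr7. The VST scale compresses differences at such low counts, and counts of a few reads carry counting error of their own.

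The upstream sequences of 3 cDC1 genes are shown because these genes varied together from tumor to tumor, in both models, as given further down. They are the 250 bases before the transcription start on the coding strand, from RefSeq on GRCm38.p6 (mm10), for Xcr1 at chr9:123862030-123862279 (minus strand), Clec9a at chr6:129408612-129408861 (plus strand) and Batf3 at chr1:191098164-191098413 (plus strand). Capitals mark matches, on either strand, to an ETS core (GGAAGT) or an E-box (CACGTG), which adjoin and share 1 capital run in Batf3.
Xcr1: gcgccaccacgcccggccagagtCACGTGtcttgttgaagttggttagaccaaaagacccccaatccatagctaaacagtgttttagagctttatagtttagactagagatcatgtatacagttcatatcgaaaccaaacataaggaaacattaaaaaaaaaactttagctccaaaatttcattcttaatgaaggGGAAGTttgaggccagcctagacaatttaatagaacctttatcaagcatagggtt
Clec9a: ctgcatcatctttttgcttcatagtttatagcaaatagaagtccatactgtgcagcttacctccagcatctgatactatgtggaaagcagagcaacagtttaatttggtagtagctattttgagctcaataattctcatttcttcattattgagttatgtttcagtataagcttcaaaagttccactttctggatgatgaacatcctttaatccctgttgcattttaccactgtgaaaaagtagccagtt
Batf3: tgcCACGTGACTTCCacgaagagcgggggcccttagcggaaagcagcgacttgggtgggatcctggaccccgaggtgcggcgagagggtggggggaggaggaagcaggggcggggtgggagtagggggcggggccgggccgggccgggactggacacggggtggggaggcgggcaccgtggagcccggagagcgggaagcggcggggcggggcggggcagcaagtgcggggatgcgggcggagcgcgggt

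The RefSeq table held 10 such windows for 9 of the genes, 2 of them for Irf8. The ETS core, a binding motif of a factor family that includes PU.1, was found in 5 of the 10 windows (Batf3, Cd209a, Flt3, Siglech, Xcr1), and in 19.7% of the 32851 windows of all genes. The E-box was found in 3 (Batf3, Siglech, Xcr1), against 6.02% of all windows. An activator protein 1 site (TGANTCA) was found in Zbtb46 alone, against 6.75%, and an interferon regulatory factor element and an ETS-IRF composite element in none, against 2.98% and 2.3%. These motifs were kept after a wider set had been searched, so that the counts are a description of these letters only. Ccr7 was not in the table.

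In mm10 (positions from RefSeq, strands from GENCODE) the genes span Flt3 at chr5:147330741-147400489 (minus strand), Zbtb46 at chr2:181371009-181493262 (minus strand), Batf3 at chr1:191098414-191108943 (plus strand) and Irf8 at chr8:120736358-120756694 (plus strand). The receptor and cytokine genes span Xcr1 at chr9:123852315-123862029 (minus strand), Clec9a at chr6:129408862-129424764 (plus strand), Ccr7 at chr11:99144199-99155077 (minus strand), Il12b at chr11:44400063-44414677 (plus strand), Cd209a at chr8:3743395-3748984 (minus strand) and Siglech at chr7:55768154-55779448 (plus strand). Reads were counted over their exons.

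Levels differed widely among the genes. Per kilobase of exon in mm10, the median normalized count in 4T1 tumors was 201 for Irf8, 22.3 for Batf3, 19.2 for Ccr7, 9.98 for Clec9a, 9.42 for Cd209a, 8.26 for Zbtb46, 6.11 for Xcr1, 4.82 for Il12b, 3.06 for Flt3 and 1.45 for Siglech. Irf8 stood apart, its lowest 4T1 tumor (129) lying above the highest of Batf3 (73.2), and every other pair of neighbors in this order overlapped. In 66cl4 tumors the order was Irf8 (122), Ccr7 (25.4), Batf3 (8.64), Il12b (8.44), Clec9a (8.26), Xcr1 (7.04), Zbtb46 (4.28), Flt3 (4.09), Cd209a (3.53) and Siglech (1.6), and again only Irf8 did not overlap its neighbor. Every one of these genes had reads in each tumor, apart from Cd209a, at 0 in 4 4T1 tumors, and Siglech, at 0 in 1 4T1 and 2 66cl4 tumors. Cd209a belongs to a family of similar lectin genes, so that its reads may be split among copies.

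**Figure D1:**
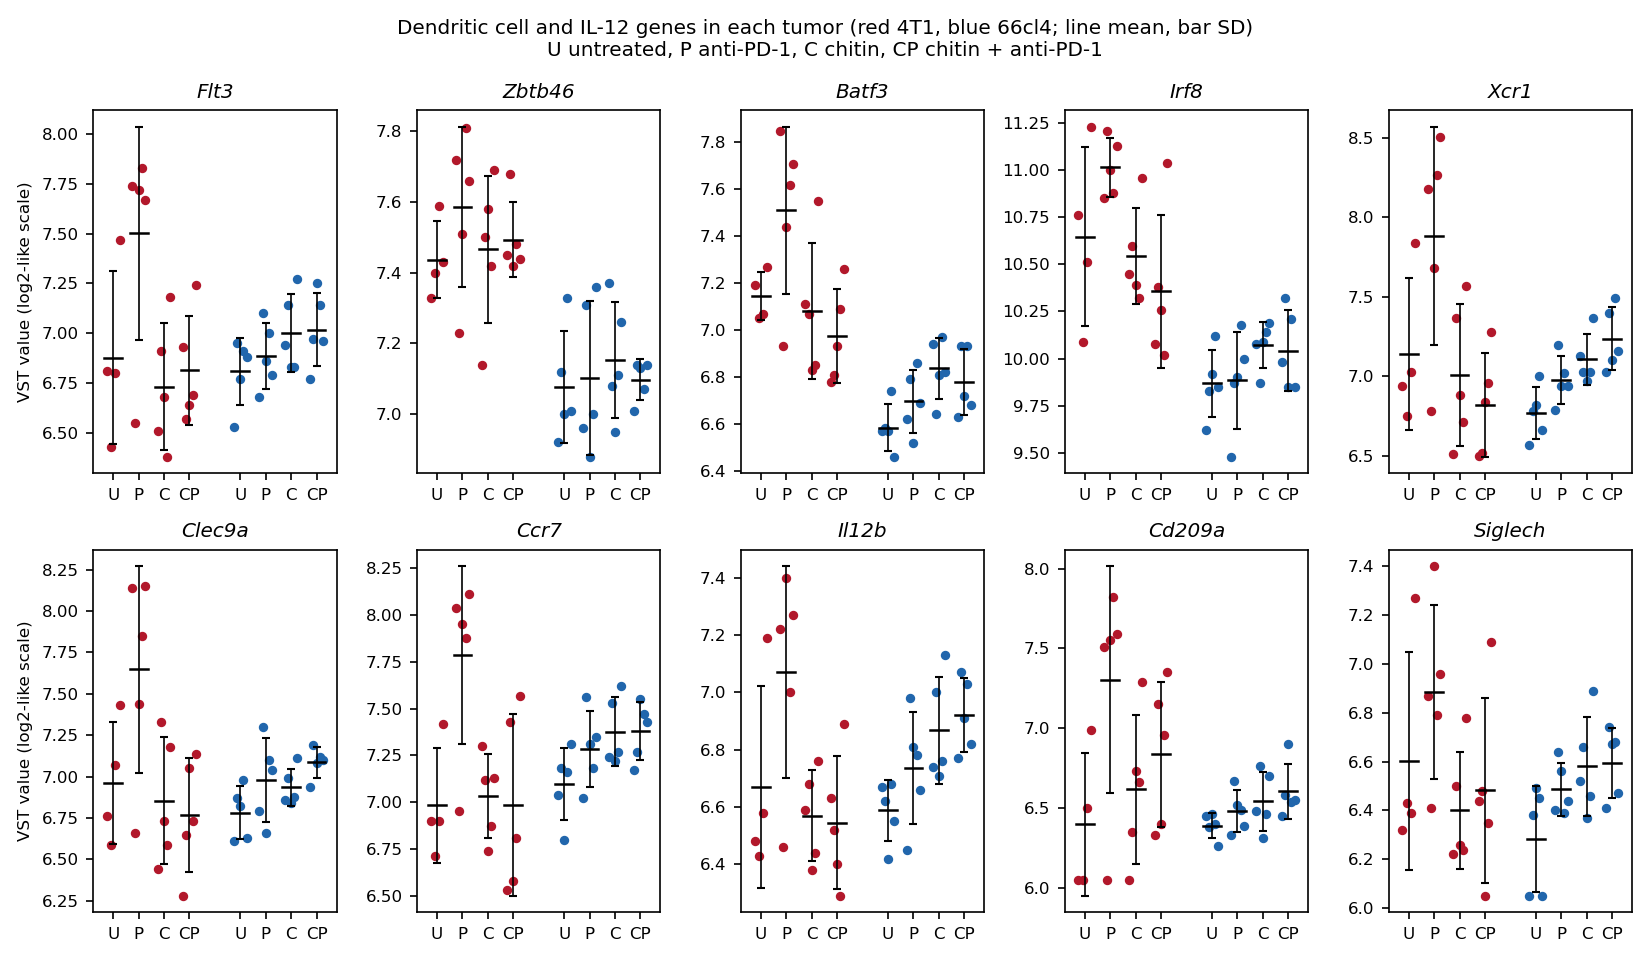
VST values (log2-like scale, y axis) of the 10 genes in each of 39 tumors, by treatment group (x axis), with the mean and SD of each group of 4 or 5 tumors. In 4T1 tumors (red) the anti-PD-1 group has the highest mean for every gene and 1 low tumor for most of them, and in 66cl4 tumors (blue) the untreated group has the lowest mean for every gene.

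The transcription factors differed between the models. Zbtb46, Batf3 and Irf8 were higher in 4T1 than in 66cl4 tumors over all treatments, by 0.39 ± 0.05, 0.45 ± 0.06 and 0.67 ± 0.09 in VST value (SE; adjusted p = 4.2e-08, 9.48e-08 and 9.06e-09). The mean normalized count over the 4 groups was 73.5 against 38.1 for Zbtb46, 46.5 against 15.5 for Batf3 and 1520 against 883 for Irf8. Cd209a was also higher in 4T1 tumors, by 0.29 ± 0.12 (adjusted p = 0.0287), with a mean count of 30.2 against 7.33. This call was lost with quantile normalization (0.15, adjusted p = 0.179), log2 of normalized counts (0.73, 0.208), limma-voom (0.61, 0.472) and untreated tumors only (0.01, 0.978), and without 4T1 untreated tumor 5 (0.24, 0.0655), anti-PD-1 tumor 4 (0.25, 0.0503) or chitin tumor 5 (0.24, 0.053). Thus 4 of the 10 genes passed the test, while 78.8% of all 14318 genes did.

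The other 6 did not pass. Their differences, as 4T1 minus 66cl4, were 0.05 ± 0.09 for Flt3, 0.19 ± 0.11 for Xcr1, 0.11 ± 0.10 for Clec9a, -0.09 ± 0.09 for Ccr7, -0.06 ± 0.07 for Il12b and 0.11 ± 0.09 for Siglech. Without 4T1 anti-PD-1 tumor 2, Xcr1 passed as well (0.26, adjusted p = 0.013). Many related genes did pass, as did 78.8% of all genes (5838 higher and 5445 lower in 4T1 tumors). The list counts that follow lie near that share and are a description only. Of 12 pan-DC and antigen presentation genes, 9 were higher in 4T1 tumors and 1 lower, led by the major histocompatibility complex class II genes H2-Eb1 (2.17 ± 0.24), H2-Ab1 (2.11 ± 0.22) and H2-DMb2 (2.10 ± 0.14) and the integrin Itgax (2.02 ± 0.10). Of 10 macrophage and monocyte markers, 8 were lower, with -2.70 ± 0.19 for the mannose receptor Mrc1. The cDC1 list was divided, with 5 of 12 genes higher and 4 lower, the largest being the adhesion gene Cadm1 (-2.78 ± 0.08) and Cd24a (1.25 ± 0.09), both of which carcinoma cells can also express. Among 10 genes of the IL-12 family and its signaling, 5 were higher and 3 lower, with 2.67 ± 0.10 for Il23a, the partner of p40 in IL-23, and 1.67 ± 0.16 for the receptor chain Il12rb1. Of 17 genes of mature DCs, 10 were higher and 5 lower, led by Socs2 (1.41 ± 0.07). Of 9 conventional type 2 DC genes, 3 were higher and 4 lower, with -1.38 ± 0.18 for the lectin Clec10a.

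In 4T1 tumors, anti-PD-1 alone went with high counts of the DC genes in all but 1 tumor. Normalized counts of Xcr1 were 173, 17.4, 93.4, 190 and 244 in anti-PD-1 tumors 1 to 5, and 26.0, 15.6, 31.9 and 115 in untreated tumors 1, 2, 4 and 5. Clec9a read 166, 12.0, 66.5, 118 and 167 against 16.6, 9.38, 34.6 and 65.5. Anti-PD-1 tumor 2 thus lay within the untreated range and the other 4 near or above its highest tumor. Ccr7 read 146, 26.8, 133, 122 and 160 against 23.6, 14.1, 23.7 and 64.2. Cd209a read 73.2, 0, 78.1, 113 and 82.4 against 0, 0, 6.38 and 28.8. For both of them, tumor 2 lay within the untreated range and the other 4 anti-PD-1 tumors were higher. Flt3 gave the same picture, with 102, 8.03, 98.5, 114 and 92.2 against 18.9, 4.69, 18.2 and 69.5.

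Il12b followed with less separation. Its normalized counts were 46.3, 5.35, 62.7, 29.9 and 50.2 with anti-PD-1 and 5.91, 4.69, 9.11 and 43.2 in untreated tumors. Siglech read 21.8, 4.01, 62.7, 17.9 and 27.0 against 2.36, 4.69, 3.64 and 49.8, so that untreated tumor 5 exceeded 4 of the 5 anti-PD-1 tumors. Over all 5 tumors, no member was free of overlap with the untreated group, and 0.65% of all genes were above it. Anti-PD-1 tumor 2 was the lowest of its group for 9 of the 10 genes and the highest for Irf8, and untreated tumor 5 was the highest of its group for 9, Zbtb46 aside.

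**Figure D2:**
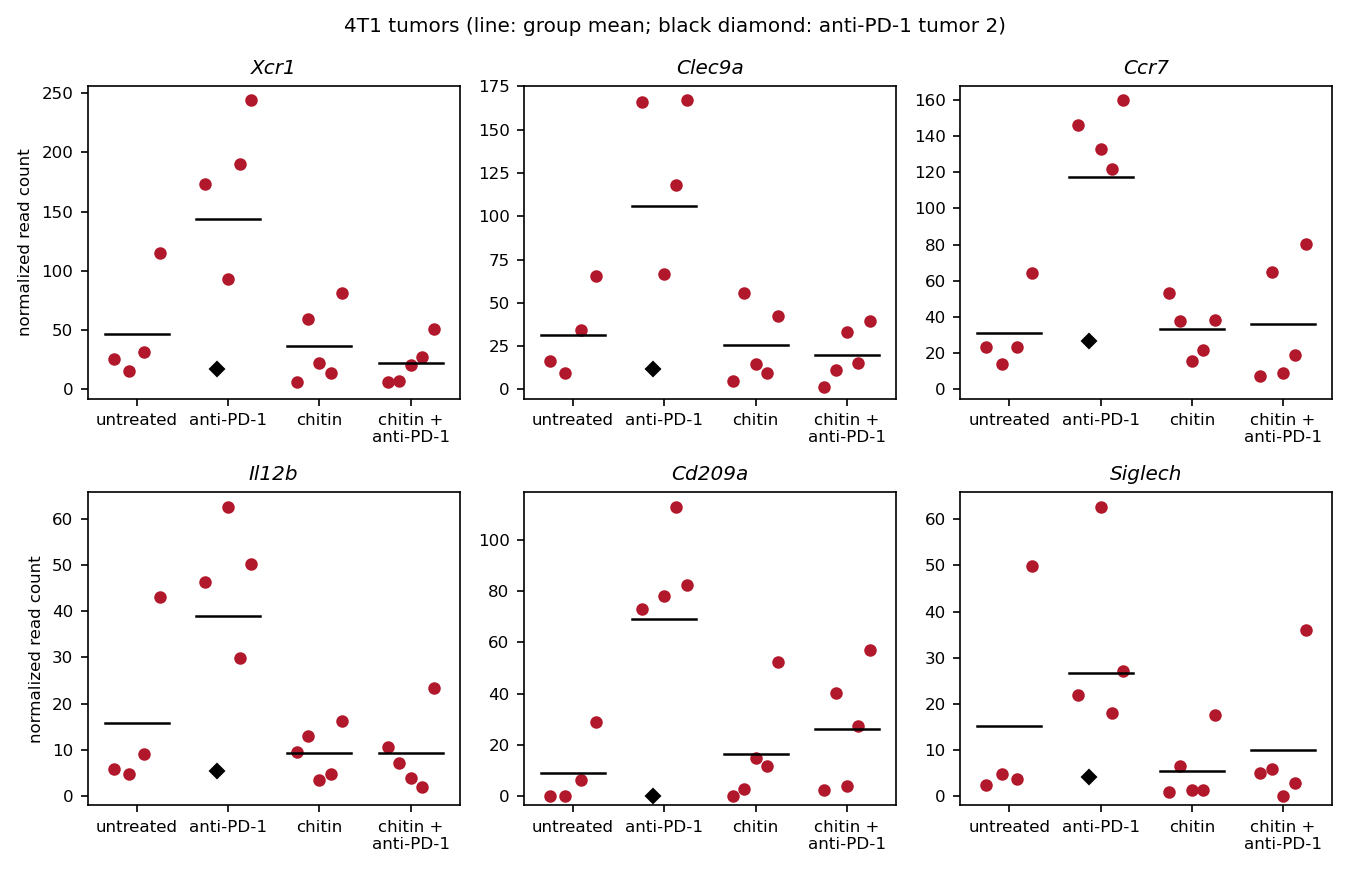
Normalized read counts (y axis) of 6 genes in the 4T1 tumors of each group (x axis), with the group mean as a line. Anti-PD-1 tumor 2 (black diamond) lies near the untreated tumors, with 17.4 for Xcr1 and 0 for Cd209a, and the other anti-PD-1 tumors lie above most tumors of the remaining groups.

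As a group, the 10 genes all had a positive difference between anti-PD-1 and untreated 4T1 tumors, with a median of 0.51 in VST value against a median near 0 for all genes. The differences were 0.91 ± 0.33 for Cd209a, 0.80 ± 0.24 for Ccr7, 0.75 ± 0.31 for Xcr1, 0.69 ± 0.28 for Clec9a, 0.62 ± 0.25 for Flt3, 0.40 ± 0.18 for Il12b and 0.37 ± 0.17 for Batf3. These 7 had an unadjusted p under 0.05, as did 4.52% of all genes in this direction, but their adjusted p lay between 0.517 and 0.541. None of the 10 passed the adjusted test in this comparison, nor did any gene in the table (0.0%). With each tumor left out in turn, tumor 2 of the anti-PD-1 group was the one whose omission brought members past the threshold: Ccr7, at 1.01 (adjusted p = 0.0467), and Cd209a, at 1.22 (adjusted p = 0.0479). How many of all genes passed without tumor 2 is not given here. With weights that downgrade tumors of high spread, 7 members passed, as did 580 of the 14318 genes in this direction.

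Markers of other leukocytes moved with this result. B-cell markers (5 measured) summed to 53.5 in anti-PD-1 tumor 2 and 381 to 794 in the other anti-PD-1 tumors, against 30.7 to 164 in untreated tumors, and all 5 had an unadjusted p under 0.05 with a median difference of 0.92, led by Pax5 (0.76 ± 0.20) and Ms4a1 (1.00 ± 0.28). T-cell markers (7 measured) summed to 898 in tumor 2 and 1390 to 2190 in the others, against 346 to 1290, with 6 of 7 under 0.05. Macrophage and monocyte markers summed to 13700 in tumor 2 and 30400 to 35400 in the others, against 16100 to 26400, with 0 of 10 under 0.05. Adipocyte markers, which fatty tissue around a tumor would bring, summed to 46.8 in tumor 2 and 1430 to 7640 in the others, against 175 to 611. None of these lists held a gene at 0 in all tumors. Their part in the result was not tested.

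Genes that act with the members mostly gave values of the same sign. Above 0 were 4 of 6 ligands, 13 of 17 mature DC, 10 of 12 cDC1, 12 of 13 plasmacytoid DC and 8 of 10 IL-12 genes. Of 9 conventional type 2 DC genes 7 were above 0, with 3 higher and 1 lower at an unadjusted p under 0.05. Summed counts of the mature DC genes averaged 8340 with anti-PD-1 and 8820 in untreated tumors. Among the ligands, Ccl5, a chemokine that attracts T cells and DCs, differed by 1.58 ± 0.44 and Flt3l, the ligand of FLT3, by 0.39 ± 0.12 (adjusted p = 0.517 for both), and 3 of 6 measured ligands had an unadjusted p under 0.05 in this direction. Of 17 mature DC genes, 2 did, Ccl22 (0.94 ± 0.31) and Ccl17 (0.50 ± 0.19), which encode chemokines of activated DCs. Of 12 cDC1 genes 3 did, among them Gcsam (0.54 ± 0.20) and Septin3 (listed as Sept3, 0.70 ± 0.26). Of the 13 plasmacytoid DC genes 2 did, Lag3 (0.55 ± 0.19) and Spib (0.69 ± 0.25), which T and B cells express as well. Of the 10 IL-12 genes, 1 did, the signal transducer Stat4 (0.38 ± 0.15).

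The combination did not show the high values of anti-PD-1 alone in 4T1 tumors. Xcr1 read 6.54, 7.21, 20.2, 27.2 and 51.3 in chitin + anti-PD-1 tumors 1 to 5, a mean of 22.5 against 144 with anti-PD-1. Clec9a read 1.64, 11.5, 32.9, 15.0 and 39.6, a mean of 20.1 against 106. Il12b read 10.6, 7.21, 3.79, 1.88 and 23.3, a mean of 9.37 against 38.9. For all 3 genes the groups overlapped through anti-PD-1 tumor 2. Every member overlapped between these groups, while 0.684% of all genes were lower in all combination tumors. Irf8, Siglech and Zbtb46 overlapped apart from tumor 2 as well. Combination tumor 5 read 1970 for Irf8 and 36.1 for Siglech, against 1720 in anti-PD-1 tumor 1 and 17.9 in anti-PD-1 tumor 4. Zbtb46 read 93.7 in combination tumor 2 and 74.2 in anti-PD-1 tumor 3. Cd209a was less clear, with 2.45, 40.4, 3.79, 27.2 and 57.1, and Ccr7 with 7.36, 64.9, 8.85, 18.8 and 80.5, with 2 tumors well above the rest for Ccr7.

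This comparison was added after the values had been seen, and it shares the anti-PD-1 tumors with the preceding one. The difference of combination minus anti-PD-1 was -1.06 ± 0.29 for Xcr1, -0.88 ± 0.26 for Clec9a, -0.81 ± 0.23 for Ccr7, -0.69 ± 0.23 for Flt3, -0.66 ± 0.20 for Irf8, -0.54 ± 0.16 for Batf3 and -0.53 ± 0.17 for Il12b. These 7 had an unadjusted p under 0.05, as did 5.59% of all genes in this direction, and their adjusted p was 0.307 to 0.398. Cd209a (-0.47 ± 0.31), Siglech (-0.40 ± 0.21) and Zbtb46 (-0.09 ± 0.11) did not reach it. Without anti-PD-1 tumor 2, 6 of the 10 genes passed the adjusted test, among them Xcr1 (-1.34, adjusted p = 0.0189), Clec9a (-1.13, 0.0236), Ccr7 (-1.01, 0.0236) and Il12b (-0.68, 0.0329). No single omission gave more (range 0 to 6), and this tumor was the lowest of its group for 9 of the 10 genes. How many of all genes passed without it is not given here. When both models shared 1 estimate of the spread, 7 members passed, as did 227 of the 14318 genes in this direction. Other markers moved with this difference: all 7 T-cell markers (median -1.02), all 5 B-cell markers (median -0.995) and 5 of 10 macrophage and monocyte markers (median -0.76) had an unadjusted p under 0.05 and were lower, and 3 of 6 neutrophil markers were higher (median 0.77), beside a median of -0.60 for the members. Their part in the result was not tested.

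Against untreated 4T1 tumors, neither chitin nor the combination differed for any member at an unadjusted p under 0.05, which 2.77% and 2.56% of all genes reached in either direction. Xcr1 had a difference of -0.13 ± 0.31 for chitin and of -0.32 ± 0.31 for the combination, Il12b of -0.10 ± 0.18 and -0.12 ± 0.18, and Cd209a of 0.22 ± 0.33 and 0.44 ± 0.33. Counts in the chitin group overlapped those of untreated tumors, with 6.64, 59.2, 22.4, 14.2 and 81.0 for Xcr1 and 9.48, 13, 3.39, 4.73 and 16.2 for Il12b. Tumor 5 was the highest of the chitin group for 8 genes and of the combination group for 9. With SEs of this size, a p over the threshold does not show that the groups were alike.

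With both chitin-containing groups pooled, all 10 genes had lower values than in the other 4T1 tumors, with a median difference of -0.35 against a median near 0 for all genes. The largest were -0.60 ± 0.21 for Xcr1, -0.50 ± 0.19 for Clec9a, -0.42 ± 0.17 for Flt3, -0.38 ± 0.15 for Irf8 and -0.38 ± 0.17 for Ccr7, followed by Il12b (-0.31 ± 0.12) and Batf3 (-0.30 ± 0.12). These 7 had an unadjusted p under 0.05, as did 4.46% of all genes in this direction, and an adjusted p of 0.589 to 0.665. None passed the adjusted test, and 6 passed with tumor weights, as did 231 of the 14318 genes in this direction. Zbtb46 (-0.03 ± 0.08) and Cd209a (-0.12 ± 0.23) were within 1 SE of 0. The contrast rests on the same anti-PD-1 tumors as those above.

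Other DC and leukocyte genes moved with them. Of 12 cDC1 genes, 8 had an unadjusted p under 0.05 in the same direction, led by Cadm1 (-0.72 ± 0.16) and the integrin Itgae (-0.66 ± 0.24), and so did 7 of 12 pan-DC and class II genes, such as Cd74 (-0.57 ± 0.20), the class II chaperone. The IL-12 family subunit Ebi3 (-0.24 ± 0.07) and the kinase Tyk2 (-0.20 ± 0.06) were among 4 of 10 IL-12 genes. All 7 T-cell markers, 4 of 5 B-cell markers, 6 of 10 macrophage and monocyte markers and the pan-leukocyte gene Ptprc (-0.50 ± 0.21) were lower at the same threshold, and 0 of 6 neutrophil markers were. Summed T-cell markers ranged from 235 to 1210 in chitin-containing tumors and from 346 to 2190 in the others. The growth factor Csf2 was the exception among the ligands, with a difference of 0.28 ± 0.07, while Flt3l had -0.26 ± 0.08. Their part in the result was not tested.

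In 66cl4 tumors, most of the genes had higher means in both chitin-containing groups than in the other groups. The exceptions were Clec9a, with a mean of 30.3 with anti-PD-1 and 26.2 with chitin, and Zbtb46, with 38.4 with anti-PD-1 and 36.5 with the combination. Xcr1 read 39, 31.4, 27.9, 31.5 and 59.8 in chitin tumors 1 to 5 and 31.9, 62.7, 36.5, 71.6 and 41.0 with the combination, against 8.76, 17.2, 19.3, 29.6 and 12.0 in untreated and 18.0, 44.5, 26.1, 31.3 and 26.3 in anti-PD-1 tumors. Il12b read 15.4, 29.8, 14.2, 16.4 and 39.1 with chitin and 16.8, 34.2, 24.1, 32.0 and 19.1 with the combination, against 12.5, 10.3, 4.4, 12.9 and 8.01 in untreated and 5.13, 28.4, 19, 17.5 and 11.9 in anti-PD-1 tumors. All 5 combination tumors were above all untreated tumors for both genes, which 1.1% of all genes shared, and all 5 chitin tumors were for Il12b, which 0.978% shared. No other member and no other pair of groups of a model against its untreated group was free of overlap. Anti-PD-1 tumors of the 66cl4 model lay between and overlapped both.

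The cDC1 receptor Clec9a and the transcription factor Batf3 also had their lowest mean in untreated tumors. Clec9a averaged 18.0 ± 7.75 in untreated, 30.3 ± 16.2 in anti-PD-1, 26.2 ± 7.29 in chitin and 35.8 ± 6.27 in combination tumors (SD, n = 5 each). Batf3 averaged 9.5 ± 3.67, 14.0 ± 5.71, 20.6 ± 6.49 and 17.8 ± 7.04. Siglech, at few reads, averaged 2.95 ± 2.86, 6.41 ± 3.34, 10.1 ± 7.83 and 10.1 ± 4.91, with untreated tumors 1 and 5 at 0. Zbtb46 showed no such step, at 35.8 ± 11.9, 38.4 ± 16.6, 41.6 ± 12.6 and 36.5 ± 4.09.

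Chitin-containing minus other 66cl4 tumors gave a positive difference for all 10 genes, with a median of 0.18 against a median near 0 for all genes. It was 0.30 ± 0.07 for Xcr1 (adjusted p = 0.0961), 0.23 ± 0.07 for Il12b (0.139), 0.17 ± 0.06 for Batf3 (0.174), 0.20 ± 0.07 for Siglech (0.203) and 0.19 ± 0.08 for Ccr7 (0.252), and Irf8 (0.18 ± 0.08), Flt3 (0.16 ± 0.08) and Cd209a (0.14 ± 0.06) followed at 0.291 to 0.306. These 8 had an unadjusted p under 0.05, as did 7.79% of all genes in this direction, and none passed the adjusted test. Xcr1 passed without untreated tumor 3 (0.30, adjusted p = 0.0446). Since the chitin groups were sequenced more deeply, the tumors were also thinned to equal reads, which left 0.24 for Xcr1 (adjusted p = 0.12), 0.16 for Il12b (0.264) and 0.18 for Batf3 (0.119).

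**Figure D3:**
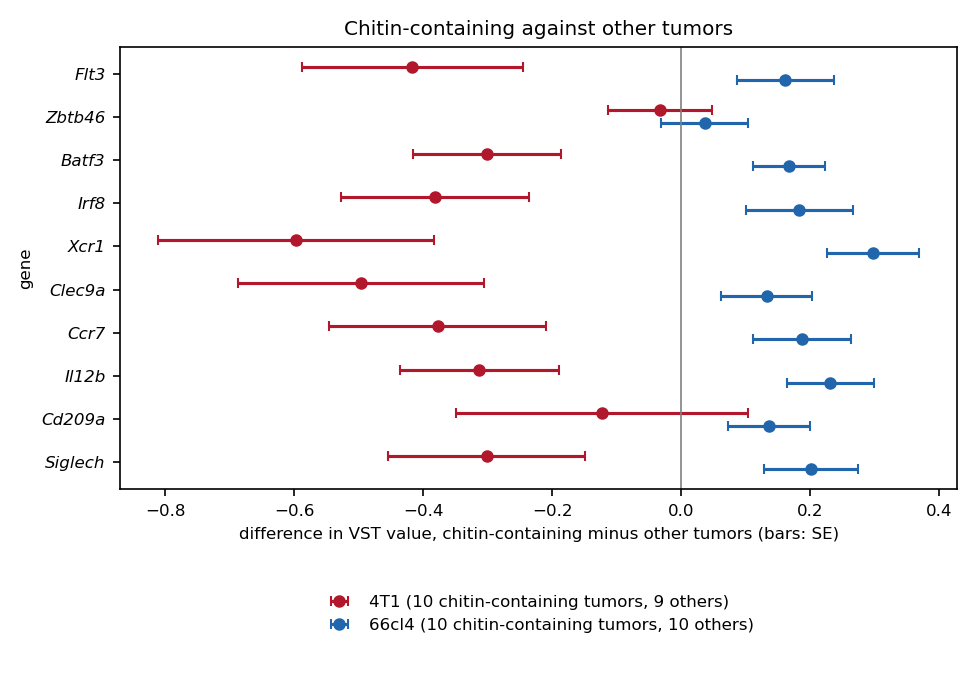
Difference in VST value (x axis; points, bars SE) between chitin-containing and other tumors for each gene (y axis) in the 4T1 (red, 10 against 9 tumors) and 66cl4 (blue, 10 against 10 tumors) models. All red points are below 0 and all blue points above, from -0.60 and 0.30 for Xcr1 to -0.03 and 0.04 for Zbtb46.

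The groups taken singly gave similar values, and they share the untreated tumors. With chitin alone the difference from untreated 66cl4 tumors was 0.34 ± 0.10 for Xcr1, 0.28 ± 0.10 for Il12b, 0.25 ± 0.08 for Batf3, 0.29 ± 0.10 for Siglech and 0.28 ± 0.11 for Ccr7, which were the 5 members with an unadjusted p under 0.05 (6.17% of all genes in this direction). With the combination it was 0.47 ± 0.10 for Xcr1, 0.33 ± 0.10 for Il12b, 0.31 ± 0.10 for Siglech, 0.31 ± 0.10 for Clec9a, 0.28 ± 0.11 for Ccr7, 0.21 ± 0.09 for Cd209a and 0.19 ± 0.08 for Batf3, 7 members in all (5.77%). With anti-PD-1 alone, Xcr1 was the single such member (0.22 ± 0.10, against 2.8% of all genes). Adjusted p was 0.18 for Xcr1 with the combination and 0.228 or more elsewhere. The combination exceeded anti-PD-1 alone by 0.26 ± 0.10 for Xcr1 (adjusted p = 0.555), the 1 member with an unadjusted p under 0.05 in this added comparison (3.81%).

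The wider gene groups moved less evenly in 66cl4 tumors. Of 12 pan-DC and class II genes, 9 had an unadjusted p under 0.05 in the same direction, led by the class II transactivator Ciita (0.62 ± 0.23) and H2-DMb2 (0.36 ± 0.14). Of 17 mature DC genes, 4 had, among them Cd40 (0.23 ± 0.07) and Cd83 (0.39 ± 0.13), costimulatory and maturation molecules of DCs. Only 2 of 12 cDC1 genes had, with 0.44 ± 0.12 for Naaa, and 1 had the opposite sign, the transcription factor Nfil3 (-0.26 ± 0.09). In the IL-12 list, Ifng (0.13 ± 0.05) and Il23a (-0.13 ± 0.06) differed in opposite directions. Macrophage and monocyte markers, 5 of 10 at this threshold, summed to 39700 to 49900 in chitin-containing and 26300 to 46500 in other tumors, and T-cell markers, 2 of 7, to 130 to 341 and 76.5 to 270. Ptprc was higher by 0.24 ± 0.09. Their part in the result was not tested.

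The pooled difference, chitin-containing minus other tumors, had opposite signs in the models for every member. Set as 4T1 minus 66cl4, the interaction was -0.89 ± 0.23 for Xcr1 and -0.54 ± 0.14 for Il12b (adjusted p = 0.0791 for both), -0.47 ± 0.13 for Batf3 (0.0845), -0.57 ± 0.17 for Irf8 (0.11), -0.63 ± 0.21 for Clec9a and -0.58 ± 0.19 for Flt3 (0.155), -0.56 ± 0.19 for Ccr7 (0.159) and -0.50 ± 0.17 for Siglech (0.171). These 8 had an unadjusted p under 0.05, against 7.66% of all genes in this direction. None passed the adjusted test, which 0.0978% of all genes did. Cd209a (-0.26 ± 0.24) and Zbtb46 (-0.07 ± 0.11) had adjusted p of 0.695 and 0.842. The pooled difference of Zbtb46 was near 0 in both models (-0.03 ± 0.08 and 0.04 ± 0.07). Against untreated 4T1 tumors alone the sign was not uniform: 7 members were below 0 and 3 above with chitin. With the combination, 8 were below and 2 above.

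Whether members passed this interaction test depended on which tumors were included and on the settings. Without 4T1 anti-PD-1 tumor 2, 7 of the 10 genes passed, with -1.03 for Xcr1 (adjusted p = 0.00332), -0.62 for Il12b (0.00641), -0.75 for Clec9a (0.0108) and -0.67 for Ccr7 (0.0152). No single omission gave more (range 0 to 7), and this tumor was the lowest of its group for 9 of the 10 genes. Without 4T1 untreated tumor 5 the value of Xcr1 was -0.78, the nearest to 0 of all omissions. How many of all genes passed with a tumor left out is not given here. Without 4T1 chitin + anti-PD-1 tumor 5, 5 passed, and with tumor weights 8, as did 634 of the 14318 genes in this direction. Xcr1 alone passed with the replicate block, beside 93 of all genes in this direction, and Il12b alone with quantile normalization, beside 33. T-cell markers (7 of 7), macrophage and monocyte markers (8 of 10) and pan-DC and class II genes (12 of 12) had an unadjusted p under 0.05 in the same direction, for example Cd4 (-0.85 ± 0.21), the complement gene C1qc (-0.96 ± 0.25) and H2-Ab1 (-1.47 ± 0.44), so that the sign was shared with genes of other leukocytes. Their part in the result was not tested. The anti-PD-1 difference, compared between models in the same way after the values had been seen, had 2 members with an unadjusted p under 0.05, Ccr7 (0.62 ± 0.27) and Cd209a (0.81 ± 0.34), against 2.98% of all genes, and none passed the adjusted test.

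From tumor to tumor within treatment groups, the genes varied together. Deviations from the group means were correlated over the 19 4T1 and the 20 66cl4 tumors for all 45 pairs in each model, with permutation within groups and adjustment over the 90 relations. In 4T1 tumors 31 pairs passed (27 by Spearman's rho), with a median r of 0.66, and in 66cl4 tumors 22 pairs passed (22), with a median r of 0.46. The share of passing pairs over all genes is not given here, so that the counts do not set these genes apart from others. In 4T1 tumors the median r of the members with T- and B-cell markers was 0.71 and 0.72. The points of a pair share the library and its depth. Without the 2 tumors farthest from the median of the first gene, the median r was 0.45 and 0.49, and without 4T1 chitin + anti-PD-1 tumor 5 the count in 4T1 tumors was 20.

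The cDC1 receptors had the highest r of any pair in 4T1 tumors and the third highest in 66cl4 tumors. Xcr1 and Clec9a had r = 0.94 and rho = 0.91 in 4T1 tumors (permutation p = 1e-05 for both, the smallest these permutations can give; adjusted p = 0.00045 and 0.0009; r = 0.91 without the 2 farthest tumors) and r = 0.74 and rho = 0.76 in 66cl4 tumors (permutation p = 0.00011 and 0.00016; adjusted p = 0.0033 and 0.0072; r = 0.76). Batf3 went with Xcr1 at r = 0.83 and rho = 0.78 in 4T1 tumors (permutation p = 0.00021 and 0.00047, adjusted p = 0.0045 and 0.00825, r = 0.71 without the 2 farthest tumors) and at r = 0.63 and rho = 0.65 in 66cl4 tumors (permutation p = 0.00913 and 0.00657, adjusted p = 0.0222 and 0.0211, r = 0.66). Its r with Clec9a was 0.78 and 0.55 (adjusted p = 0.00967 and 0.0354, permutation). Il12b went with Ccr7 in both models, at r = 0.80 and rho = 0.76 (permutation p = 0.00193 and 0.00159; adjusted p = 0.0108 and 0.00984; r = 0.79) and at r = 0.72 and rho = 0.72 (permutation p = 0.00208 for both; adjusted p = 0.0108 and 0.011; r = 0.61). Zbtb46 and Irf8 were the loosest members of the set, with 3 and 1 of 9 partners in 4T1 and 2 each in 66cl4 tumors, whereas Xcr1 had 8 and 7. Batf3 passed with Flt3 in 4T1 tumors (r = 0.78, rho = 0.71, permutation p = 0.00117, adjusted p = 0.00967) and not in 66cl4 tumors (r = 0.15, rho = 0.12, permutation p = 0.553, adjusted p = 0.585), although this difference between models was not tested.

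**Figure D4:**
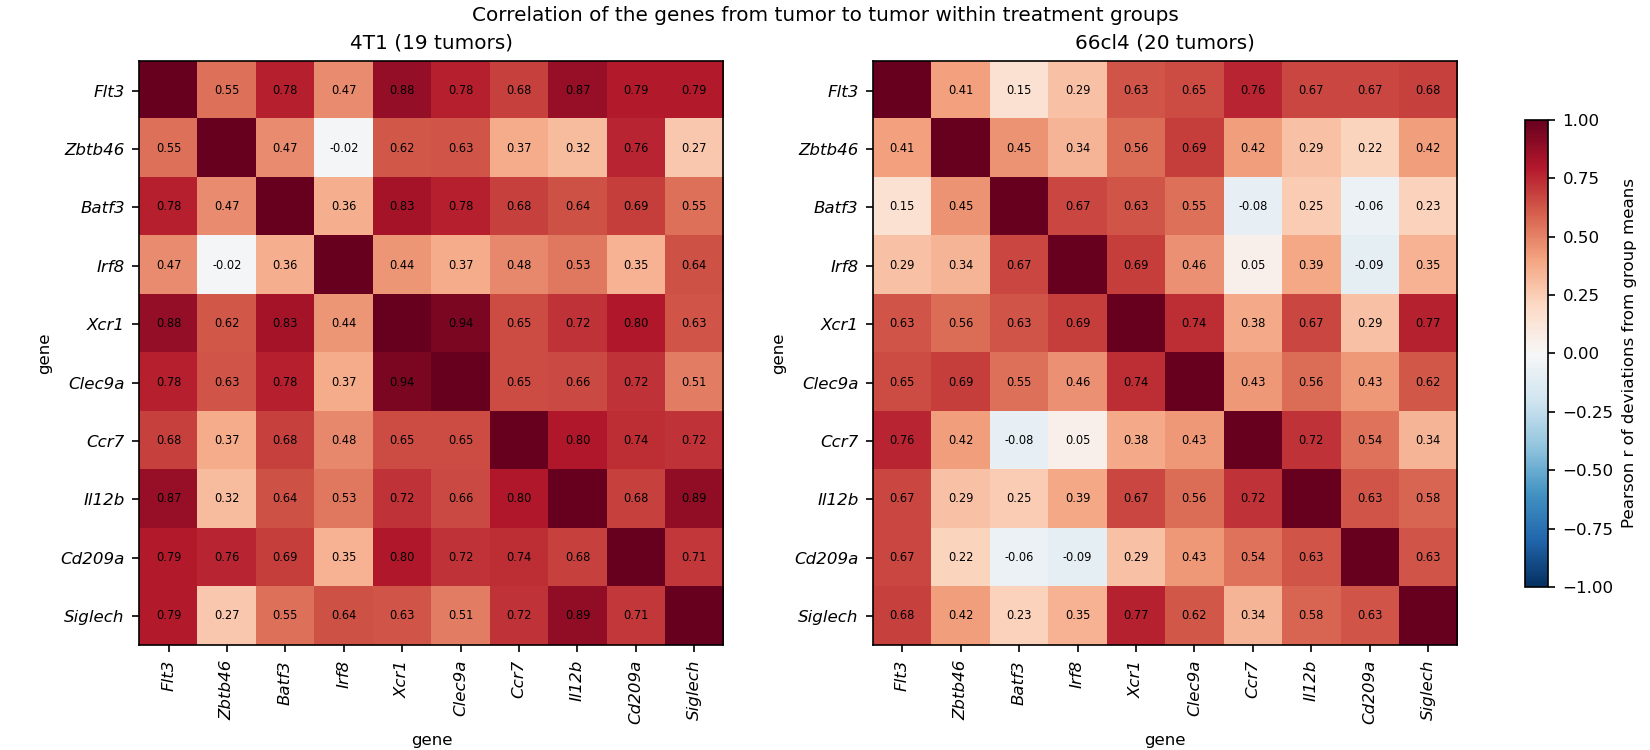
Pearson r (color and printed value) between the deviations of each pair of genes (both axes) from their group means, over 19 4T1 tumors (left) and 20 66cl4 tumors (right). Xcr1 and Clec9a have the highest value on the left (0.94), and Batf3 and Irf8 against Ccr7 and Cd209a are near 0 on the right, from -0.09 to 0.05.

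Lymphocyte markers varied with the DC genes in 4T1 tumors. Against the mean deviation of the T-cell markers, 9 of 10 members passed in 4T1 tumors (median r 0.71) and 4 in 66cl4 tumors (0.36), and against the B-cell markers 8 (0.72) and 1 (0.13). By Spearman's rho the counts were 7 and 2 for T-cell and 7 and 0 for B-cell markers. The share of all genes passing with the marker lists is not given here, so that the counts do not set the members apart. Xcr1 and Clec9a each had r = 0.91 with the B-cell markers in 4T1 tumors (adjusted p = 0.0008 and 0.00107; rho = 0.88 and 0.91; r = 0.85 and 0.86 without the 2 farthest tumors), about as high as with each other. Macrophage and monocyte markers passed with 5 members in 4T1 and 2 in 66cl4 tumors, the highest being Clec9a (r = 0.84) and Irf8 (r = 0.86). With rho in place of r, 2 passed in 4T1 and 4 in 66cl4 tumors, so that the order of the models was reversed. Neutrophil markers passed with none in 4T1 tumors and, by r, with Clec9a alone in 66cl4 tumors, at r = -0.76. Xcr1 passed as well there by rho (-0.57, adjusted permutation p = 0.0445). These 80 relations were computed after the values had been seen, with p adjusted over all of them, and their differences between models were not tested.

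Over the whole table, the genes whose deviations were most like those of a member, by the mean of r in the 2 models, were as follows. For Xcr1 they were Clec9a (0.84), Rnase6 (0.84) and Btla (0.83), for Clec9a Septin3 (0.89), Gcsam (0.87) and Btla (0.87), and for Flt3 Septin3 (0.84), Tlr11 (0.81) and Btla (0.79). For Ccr7 they were P2ry10 (0.82), Il12b (0.76) and Ccl22 (0.76), and for Il12b Strip2 (0.83), Ccl22 (0.79) and P2ry10 (0.79). The chemokine gene Ccl22 was thus near both Ccr7 and Il12b. Irf8 went with Sema4d (0.86), the class II transactivator Ciita (0.81) and Pdcd1lg2 (0.80), and Batf3 with Tnni3 (0.82), Slamf8 (0.81) and Mob3c (0.79). Cd209a went with B3gnt5 (0.80), its paralog Cd209d (0.79) and Strip2 (0.78), Siglech with Tbc1d10c (0.75), Plppr4 (0.75) and Itgb7 (0.74), and Zbtb46 with Fam53b (0.74), Sema3g (0.73) and Ints6l (0.71). Tnni3 and B3gnt5 had few reads, with a mean of 8.31 and 9.59 per tumor.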

How the data were processed

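RNA of 39 primary tumors, sequenced as TruSeq libraries, was aligned by the authors to mm10 with HISAT2. The authors counted reads per gene with strand information (summarizeOverlaps), removed rarely detected genes and deposited log2-like values from the variance stabilizing transformation of DESeq2. Versions and annotation are not given in the sources used here. All 14318 listed genes had over 10 recovered reads in at least 8 tumors. Samples were grouped by the labels' model and treatment.

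The lowest value, shared by all tumors, stands for 0 reads and fixes the transformation, from which reads were recovered (100.0% whole within 0.001). Differences were tested on the deposited values with limma 3.58.1 (R 4.3.3, trended variance), with the 4 groups of a model in 1 fit, or all 8 groups for contrasts between models, two-sided, adjusted over all genes by Benjamini-Hochberg. The fit was tested on simulated data. Correlations used 100000 permutations within groups, 20000 where a tumor was left out (Python 3.11.15, scipy 1.17.1). Alternatives covered normalization, filtering, log2 with a pseudocount of 1, limma-voom, equal depth, tumor weights, a replicate block and single tumors left out. Exon lengths and strands came from GENCODE, and gene positions and upstream sequences from RefSeq, all of mm10.

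Members and lists were chosen with earlier results of these data known, and combination against anti-PD-1, the anti-PD-1 difference between models and the relations to marker lists were added after values were seen. The text names all 10 members, per list up to 4 called genes with the largest difference or, where none passed, the 2 with the smallest unadjusted p, single-treatment differences of members with an unadjusted p under 0.05, and the 3 genes most like each member.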

Additional observations from a re-analysis of the deposited data

Results flagged for a closer look

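Among the 80 gene and group combinations of 4 or 5 tumors, 5 held a tumor far from the others. Chance alone gives about 1 group in 20, which is near the number found. Of these, 3 were the same tumor, anti-PD-1 tumor 2 of the 4T1 model, the lowest of its group, in genes that varied together. Its VST value was 6.55 for Flt3, with 7.67 to 7.83 in the other 4 tumors, 6.95 for Ccr7, with 7.88 to 8.11, and 6.05 for Cd209a, the value of 0 reads, with 7.51 to 7.82. Its summed B-cell, macrophage and adipocyte markers were also the lowest of the group, at 53.5, 13700 and 46.8, and their part in these values was not tested.

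Siglech was far above the rest in untreated 4T1 tumor 5, at 7.27 against 6.32 to 6.43. Zbtb46 was high in chitin + anti-PD-1 4T1 tumor 2, at 7.68 against 7.42 to 7.48.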

How the results depend on the processing

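The 70 member differences that were described were recomputed. Of their 581 values under other settings, 527 kept their direction and side of the threshold, 4 (all Cd209a between models) lost and 43 gained a call, and 7 changed sign. The 7 were the model difference of Flt3 (-0.080 with quantile normalization, -0.092 with log2(normalized count + 1), -0.174 with limma-voom), Clec9a (-0.021 with quantile normalization, -0.077 with limma-voom), Siglech (-0.030 with quantile normalization) and Il12b (0.082 in untreated tumors only), none of which had passed the test. Leaving out 4T1 chitin tumor 1 turned the Zbtb46 difference of chitin-containing 4T1 tumors to 0.008.

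Counts of members past the threshold moved as follows. Tumor weights gave 6 for chitin-containing 4T1 tumors, 7 for anti-PD-1 in 4T1 tumors, 8 for the chitin difference between models, 9 for combination against anti-PD-1 in 4T1 tumors and 4 for the anti-PD-1 difference between models, where none had passed. Between models, where 4 had passed, tumor weights gave 6 (Xcr1 and Clec9a added), quantile normalization 5 (Cd209a lost, and Ccr7 at -0.194 and Il12b at -0.213 lower in 4T1 tumors, adjusted p = 0.0415 and 0.00206 by limma) and limma-voom, log2 of normalized counts and untreated tumors only 3 each. Both models in 1 fit gave 7 for combination against anti-PD-1. Quantile normalization gave 1 (Il12b) for the chitin difference between models. Leaving out the lowest 25% of genes kept only Irf8 among the members, so that 1 of 1 passed between models. The replicate block gave 1 member (Xcr1) for the chitin difference between models and changed no other count of members. Tumors of the same number correlated at a mean r of 0.010 (4T1) and 0.062 (66cl4), and those of different numbers at -0.0006 and -0.015. Whether the numbers pair the tumors was not tested.

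Leaving out single tumors gave 3 to 5 members between models, 0 to 1 for chitin-containing 66cl4 tumors, 0 to 2 for anti-PD-1 in 4T1 tumors, 0 to 7 for the chitin difference, 0 to 6 for combination against anti-PD-1 in 4T1 tumors, 0 to 1 for the anti-PD-1 difference, 20 to 34 pairs in 4T1 and 17 to 23 in 66cl4 tumors. For these omissions the counts over all genes are not given here. The chitin difference between models called 14 of all genes, and 104 with the replicate block, 39 with quantile normalization, 8 with limma-voom, 8 without the lowest genes and 1004 with tumor weights. Calls rose from 0 to 960 (anti-PD-1, 4T1), 2127 (combination against anti-PD-1, 4T1), 297 and 185 (chitin-containing, 4T1 and 66cl4) and 331 (anti-PD-1 difference) with tumor weights, and to 60, 294, 58 and 1 for the first 4 of these with both models in 1 fit. Chitin-containing 66cl4 tumors called 16 genes with the replicate block, 8 at equal read depth and 6 without the lowest genes, and combination against anti-PD-1 in 4T1 tumors 2 with quantile normalization and 1 with the block. Against untreated tumors, the block called 7 genes (66cl4 combination), 2 (66cl4 chitin) and 1 (4T1 combination), where both models in 1 fit called 3 for the last. Combination against anti-PD-1 in 66cl4 tumors called 2 with tumor weights and 1 with both models in 1 fit. None was called in these comparisons as reported. The model difference called 11283 genes, and 7983 in untreated tumors only. Depth limits Siglech most, at a mean of 10.6 reads per tumor. The causes of these changes were not tested.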
